A study of Mus musculus with 15 samples.

Results

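The dual-specificity MAPK phosphatases examined here are 10 genes, Dusp1, Dusp2, Dusp4, Dusp5, Dusp6, Dusp7, Dusp8, Dusp10, Dusp14 and Dusp16. They were taken as every noncontrol probe of the arrays whose gene name was on that list, which gave 17 probes of the 56605 on the array and 10 of its 36825 gene names. All 17 probes passed the filter on dim signals, so no member dropped out, although 1 of them, the third Dusp14 probe, passed through the vehicle group alone. Dusp4, Dusp5 and Dusp8 had 2 probes each, Dusp14 and Dusp16 had 3 each, and the other members had 1.

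MAP kinases (ERK, JNK and p38) carry the signal of bacterial products from surface receptors to transcription and mRNA stability in macrophages. They are switched on by phosphorylation of a threonine and a tyrosine in one loop, and the dual-specificity phosphatases remove both phosphates. Several of these phosphatases are themselves induced by the kinases they act on, as a feedback. Dusp1 is also known as a gene that glucocorticoids induce in many cells and as a brake on p38 and JNK.

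RNA was profiled on 15 one-colour (Cy3) Agilent arrays of RAW264.7, a mouse macrophage-like cell line, in 5 groups of 3 replicates. Cells of 4 groups received a glucocorticoid at 100 nM, namely dexamethasone (DEX), fluticasone furoate (FF) or a compound known only by its code, VSG158 or VSG159, and the labels of the vehicle group give ethanol and DMSO. The protocol given for all samples adds 1 ug/ml LPS, a bacterial cell wall component, for 16 h after 1 h of pretreatment, whereas a vehicle label lists nothing beyond a solvent; every comparison below takes the vehicle cells as LPS-treated too. There was no group without LPS, the solvent of each compound is not stated, the series text speaks of duplicates where the labels number 3 replicates, and nothing says whether these were separate cultures, so p-values measure only the spread between these samples.

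Values are given as log2 of the processed spot signal minus the array's own 75th percentile, called the scaled log2 level, so that 0 is the brightness of that percentile on the array. The 75th percentile was 695.4 to 1223 signal units over the arrays, 0 spots were saturated, and 39.64% to 50.44% of the spots that are no controls stood well above background. Arrays of a group correlated at 0.9633 to 0.9909. The vehicle and VSG158 arrays and 2 VSG159 arrays lay on slide 1, and the third VSG159 array and all FF and DEX arrays lay on slide 2. No slide held both vehicle or VSG158 and DEX or FF, so a slide term in those comparisons rests on VSG159 alone. The lowest scaled log2 level still above background was -3.01 on VSG158 replicate 2 and -5.03 to -4.06 on the other arrays, so VSG158 replicate 2 resolves dim probes least. Of 12 macrophage markers, 11 (Adgre1, Aif1, Cd14, Cd68, Csf1r, Fcgr1, Itgam, Lyz2, Ptprc, Spi1 and Tlr4) were above background on all 15 arrays. The summed linear level of all 12, in multiples of the 75th percentile, was 852.6 to 966.7 in vehicle and 809.8 to 983.5 in the steroid groups. Among markers of other cells, Cd3g, Cd8a, Col1a1, Col3a1, Pdgfra, Pdgfrb, Cdh1, Krt8, Krt19, Ly6g, S100a9, Cpa3 and Kit were above background on no array, and Cd3e, Cd4, Dcn, Elane and S100a8 on all. The summed level of 4 B cell markers was 0.2172 to 0.3122 in vehicle and 0.0894 to 0.1763 in the steroid groups, and that of 6 fibroblast markers was 0.2495 to 0.3121 in vehicle and 0.2867 to 0.6207 in the steroid groups. The 5 T cell markers on the array summed to 25.93 to 43.35 in vehicle and 27.21 to 116 in the steroid groups, and the 7 neutrophil and mast cell markers to 132.1 to 142.2 and 83.16 to 188.5. The 5 epithelial markers summed to 0.04957 to 0.1028 in vehicle and 0.03388 to 0.2136 in the steroid groups. The part of these levels in the results below was not tested. In bulk RNA, fewer cells of a type and less RNA per cell cannot be told apart.

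Sequence around the start sites is shown first, for the 3 members whose promoters held a searched motif. The windows run from 250 bases before to 50 bases after the RefSeq start (build GRCm38.p6), were found for 9 of the 10 members (Dusp4 was not matched) and were compared with 32851 promoters of the same length, on both strands. The cyclic AMP response element TGACGTCA was in the windows of Dusp1 and Dusp8 and in 1.79% of all promoters, and the CArG box, the site of serum response factor, was in that of Dusp5 and in 1.63%. The glucocorticoid receptor half-site AGAACA was in 0 of 9 members and 19.0% of all promoters, the full palindromic glucocorticoid response element (which contains the half-site) in 0 and 0.00913%, the AP-1 site TGANTCA in 0 and 7.81%, and the NF-kB site in 0 and 8.46%. A match describes these letters alone, and glucocorticoid receptor sites that lie farther away were not searched. The 250 bases before each start are printed 5′ to 3′ on the gene's strand, with motif matches in capitals; they are chr17:26508473-26508722 (minus strand), chr19:53528895-53529144 (plus strand) and chr7:142095285-142095534 (minus strand).
Dusp1 promoter: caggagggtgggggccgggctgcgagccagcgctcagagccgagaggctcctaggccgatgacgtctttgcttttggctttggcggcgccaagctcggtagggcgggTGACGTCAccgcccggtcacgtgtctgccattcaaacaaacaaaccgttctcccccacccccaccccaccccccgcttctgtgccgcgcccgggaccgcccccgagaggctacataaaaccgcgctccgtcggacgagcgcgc
Dusp5 promoter: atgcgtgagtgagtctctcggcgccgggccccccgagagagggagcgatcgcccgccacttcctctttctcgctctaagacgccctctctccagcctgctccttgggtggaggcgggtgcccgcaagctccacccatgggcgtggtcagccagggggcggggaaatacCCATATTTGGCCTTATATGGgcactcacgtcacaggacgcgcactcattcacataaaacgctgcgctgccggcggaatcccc
Dusp8 promoter: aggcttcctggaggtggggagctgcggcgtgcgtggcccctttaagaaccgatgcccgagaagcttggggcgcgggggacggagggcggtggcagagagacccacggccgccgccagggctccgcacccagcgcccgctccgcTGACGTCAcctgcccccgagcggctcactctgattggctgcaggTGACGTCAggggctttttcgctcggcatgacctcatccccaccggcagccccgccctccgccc
Counted from the start site, the match in Dusp1 begins at position -143, those in Dusp8 at -107 and -63, and the adjacent pair in Dusp5 at -82 and -72.

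All 4 steroids lowered most of these phosphatase mRNAs. The members were tested with limma's moderated test over all 15 arrays, Benjamini-Hochberg adjusted over the 28497 probes tested, and a member is called when its adjusted p is under 0.05, with a gene read at its brightest tested probe. Against vehicle, FF, VSG158 and VSG159 each lowered 8 of 10 members and raised 0, and DEX lowered 7 and raised 1. Under quantile normalization DEX lowered 7 and raised 0, beside 45% of all genes called. With scaling to the median DEX had 5 members called, beside 26% of all genes. With array position added to a slide block, member calls were 0 (DEX), 4 (FF) and 5 (VSG159), beside 0.164%, 5% and 13.5% of all genes. With VSG158 that setting ended only the Dusp1 call (-0.52, adjusted p = 0.0876), and 29.3% of all genes were called. Steroid effects were wide on these arrays: of 19490 genes, 46.4% were called with DEX (23.3% higher and 23.1% lower), 42.2% with FF (20.8% and 21.4%), 44.4% with VSG158 (19.7% and 24.6%) and 44% with VSG159 (19.1% and 25%). The median change of the 10 members was -0.91 (DEX), -1.5 (FF), -1.4 (VSG158) and -1.51 (VSG159), beside 0.03, -0.05, -0.06 and -0.06 over all genes. Arrays of the 2 groups did not overlap for 8, 8, 9 and 8 members in the same order, beside 60%, 57.3%, 52.3% and 50.8% of all genes. In limma's F test over the 5 groups, 8 of 10 members were called, all but Dusp2 (adjusted p = 0.152) and Dusp7 (adjusted p = 0.127), beside 45.1% of all genes.

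**Figure D1:**
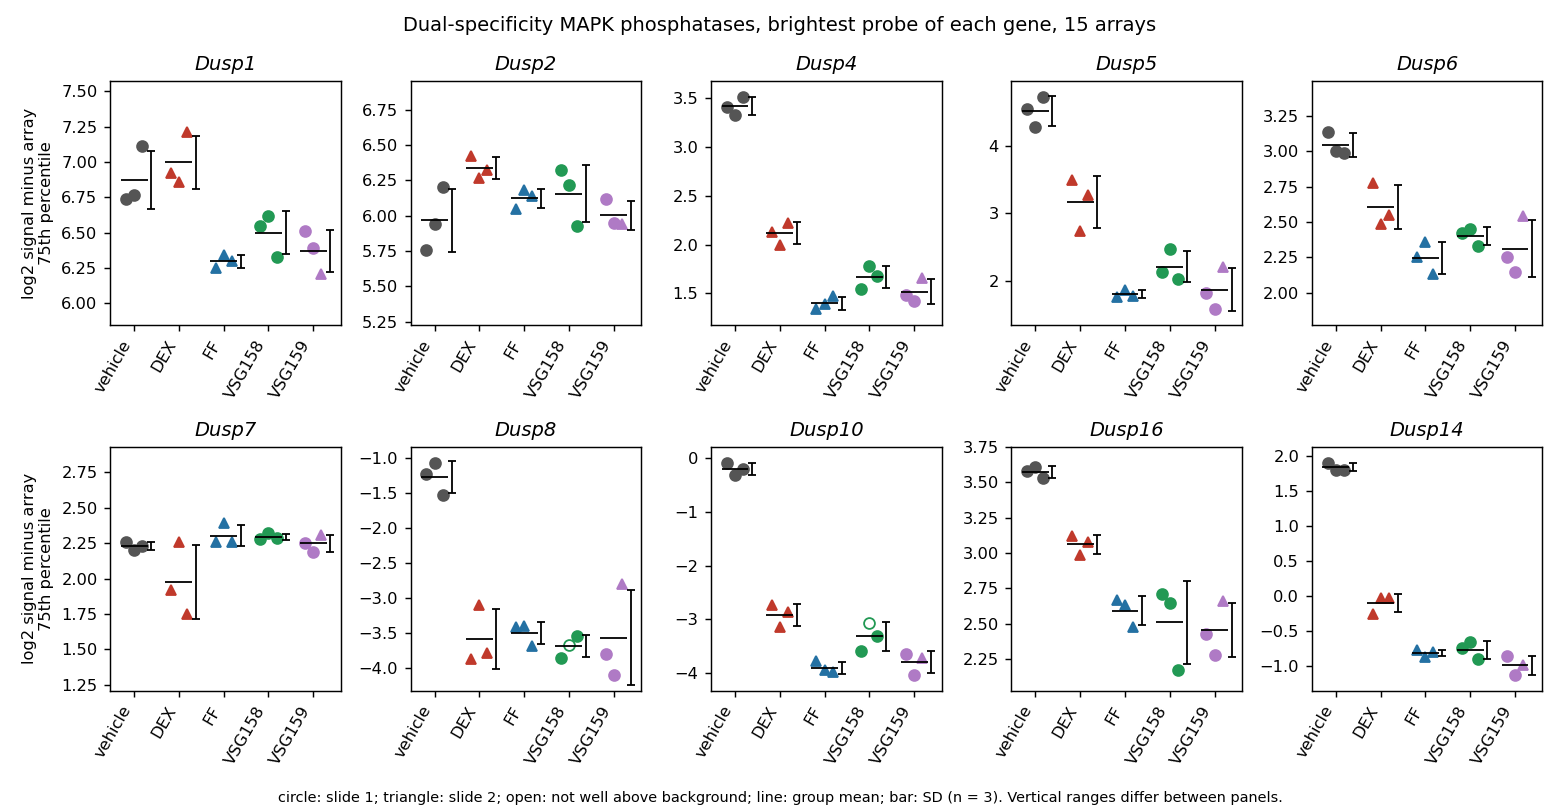
Scaled log2 level of the brightest probe of each member on each of the 15 arrays (vertical axis, log2, ranges differ between panels), by group. Circles are slide 1 and triangles slide 2, open symbols are not well above background, lines are group means and bars the SD of 3 arrays; vehicle stands above all steroid arrays for Dusp4, Dusp5, Dusp6, Dusp8, Dusp10, Dusp16 and Dusp14.

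**Figure D2:**
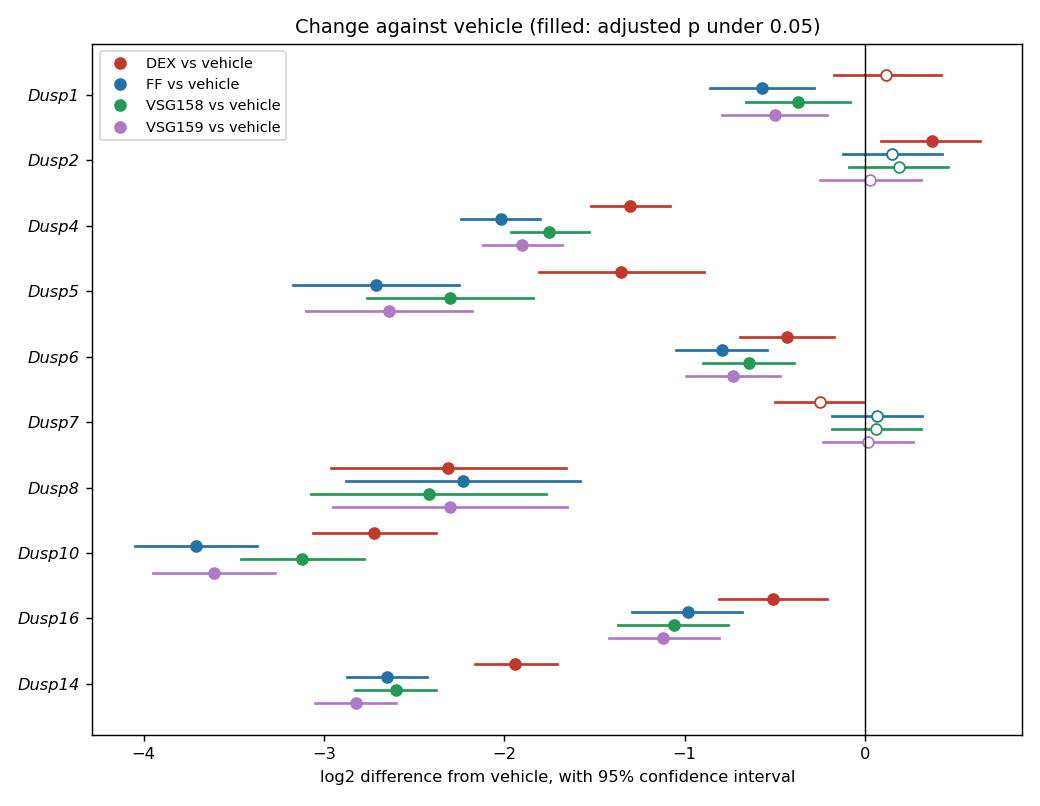
Log2 difference of each steroid group from vehicle (horizontal axis) for the 10 members, with the 95% confidence interval of the fit; filled points have an adjusted p under 0.05. Dusp10 lies farthest left with each steroid, Dusp7 lies near 0 and Dusp2 with DEX is the only filled point right of 0.

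Dusp1 (MKP-1), which acts on p38 and JNK and limits cytokine output in macrophages, was called higher with none of the 4 steroids. Its vehicle arrays read 6.74, 6.77 and 7.11. The DEX arrays read 6.92, 6.86 and 7.21, within and just above the vehicle range. The FF arrays read 6.25, 6.34 and 6.3, those of VSG158 6.55, 6.62 and 6.33, and those of VSG159 6.51, 6.39 and 6.21, and each of these 9 lay below every vehicle and DEX array. The change with DEX was 0.12 (SE 0.13, 95% confidence interval -0.17 to 0.42, adjusted p = 0.472). The changes were -0.57 with FF (1.49-fold lower, adjusted p = 0.00421), -0.50 with VSG159 (1.41-fold, adjusted p = 0.0091) and -0.37 with VSG158 (1.29-fold, adjusted p = 0.0399), each with an SE of 0.13. With slide as a fixed block the FF change was -0.32 (adjusted p = 0.30), on slide 1 alone the VSG158 and VSG159 changes were -0.37 (adjusted p = 0.0772) and -0.42 (adjusted p = 0.072), and without vehicle replicate 3 the VSG158 change was -0.25 (adjusted p = 0.158). The VSG158 call was also lost without VSG158 replicate 1 or 3, VSG159 replicate 2 or any 1 FF replicate, at -0.40 to -0.29 with adjusted p-values of 0.051 to 0.136. With scaling to the median none of the 3 changes was called: -0.52 with FF (adjusted p = 0.14), -0.43 with VSG158 (adjusted p = 0.206) and -0.43 with VSG159 (adjusted p = 0.221). The VSG158 call was lost in 14 of 29 alternatives, quantile normalization among them (-0.27, adjusted p = 0.066).

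Dusp2 (PAC-1), a nuclear phosphatase of activated immune cells, gave the only rise. Vehicle arrays read 5.76, 5.94 and 6.2, and DEX arrays read 6.42, 6.27 and 6.32, above all of them. The FF arrays (6.05, 6.18 and 6.14), the VSG158 arrays (6.32, 6.22 and 5.93) and the VSG159 arrays (6.12, 5.95 and 5.94) overlapped with vehicle. The DEX change was 0.37 (SE 0.13, adjusted p = 0.0336), 1.29-fold, and it was no longer called without any 1 of vehicle replicates 1 and 2 and the 3 DEX replicates (0.26 to 0.40, adjusted p = 0.0505 to 0.137) or with slide as a fixed block (0.46, adjusted p = 0.14). The changes with FF, VSG158 and VSG159 were 0.15, 0.19 and 0.03, none called.

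Dusp4 (MKP-2), a nuclear relative of Dusp1, fell with all 4 steroids. Its brighter probe read 3.41, 3.33 and 3.51 on the vehicle arrays and 2.13, 2 and 2.22 on the DEX arrays. On the FF arrays it read 1.34, 1.39 and 1.47, on those of VSG158 1.55, 1.78 and 1.68, and on those of VSG159 1.48, 1.42 and 1.66. Vehicle, DEX and the other steroids lay apart in that order, with no overlap between these steps. The changes were -1.30 with DEX (2.46-fold lower), -2.02 with FF (4.06-fold), -1.75 with VSG158 (3.36-fold) and -1.90 with VSG159 (3.73-fold), each with an SE of 0.10, and the highest adjusted p was 1.07e-06, with DEX. With array position added to the slide block the DEX change was -2.04 (adjusted p = 0.113).

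Dusp5, a nuclear phosphatase specific for ERK, also fell with all 4 steroids. Its brighter probe read 4.54, 4.27 and 4.72 in vehicle and 3.49, 2.74 and 3.27 with DEX. With FF it read 1.76, 1.87 and 1.77, with VSG158 2.13, 2.47 and 2.03, and with VSG159 1.82, 1.58 and 2.21. Every DEX array lay below every vehicle array and above every array of the other steroids. The changes were -1.35 with DEX (2.54-fold lower, adjusted p = 0.000274), -2.71 with FF (6.55-fold, adjusted p = 7.98e-07), -2.30 with VSG158 (4.93-fold, adjusted p = 3.27e-06) and -2.64 with VSG159 (6.24-fold, adjusted p = 1.01e-06), with an SE of 0.21. With the mean of both Dusp5 probes the DEX change was -2.21, and with array position added to the slide block it was -1.55 (adjusted p = 0.605).

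Of the cytoplasmic ERK phosphatases, Dusp6 fell and Dusp7 gave no called change. Dusp6 (MKP-3), a feedback inhibitor that holds ERK in the cytoplasm, read 3.14, 3 and 2.99 in vehicle. It read 2.78, 2.49 and 2.55 with DEX, 2.25, 2.36 and 2.13 with FF, 2.42, 2.45 and 2.33 with VSG158, and 2.25, 2.15 and 2.54 with VSG159, all below vehicle. The changes were -0.43 with DEX (SE 0.12, adjusted p = 0.0101), -0.79 with FF (adjusted p = 0.000165), -0.64 with VSG158 (adjusted p = 0.000791) and -0.73 with VSG159 (adjusted p = 0.000303). The DEX call held with slide as a fixed block (-0.77, adjusted p = 0.0068) and was lost without the filter on dim probes (-0.43, adjusted p = 0.0511), with scaling to the median (-0.46, adjusted p = 0.176) and with array position added, where the change was 0.03 (adjusted p = 0.991). With array position added the FF change was -0.56 (adjusted p = 0.388) and the VSG159 change -0.43 (adjusted p = 0.251), and with scaling to the median the VSG159 change was -0.66 (adjusted p = 0.0619). Dusp7 (MKP-X), the near relative of Dusp6, read 2.26, 2.2 and 2.23 in vehicle and 2.19 to 2.39 on all FF, VSG158 and VSG159 arrays, with changes of 0.07, 0.06 and 0.02 whose 95% confidence intervals lay between -0.23 and 0.32. Its DEX arrays read 1.92, 2.26 and 1.75, and the change of -0.25 (SE 0.11) missed the threshold (adjusted p = 0.0835). DEX replicate 2 alone lay in the vehicle range, and without it the change was -0.40 (adjusted p = 0.00493).

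The phosphatases that prefer JNK and p38 (Dusp10, Dusp8 and Dusp16) fell with every steroid. Dusp10 (MKP-5), which restrains JNK and p38 in innate immune cells, read -0.08, -0.31 and -0.2 in vehicle. It read -2.74, -3.14 and -2.87 with DEX, -3.78, -3.95 and -3.98 with FF, and -3.64, -4.03 and -3.72 with VSG159. The VSG158 arrays read -3.59, -3.06 and -3.30, of which replicate 2 was not well above background. Vehicle stood far above all 12 steroid arrays. The changes were -2.72 with DEX (6.61-fold lower), -3.71 with FF (13.1-fold), -3.12 with VSG158 (8.71-fold) and -3.61 with VSG159 (12.2-fold), with an SE of 0.16 and adjusted p-values of 1.24e-07, 7.75e-09, 2.54e-08 and 9.09e-09. These folds depend on the background correction: with normexp and quantile normalization the Dusp10 changes were -2.26 (DEX), -2.62 (FF), -2.64 (VSG158) and -2.59 (VSG159), all called.

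Dusp8, another JNK and p38 phosphatase, fell to near the detection limit. Its probe with the higher mean read -1.23, -1.07 and -1.53 in vehicle and between -4.10 and -2.81 on the 12 steroid arrays, 1 of which, VSG158 replicate 2, was not well above background. The changes were -2.31 (DEX), -2.23 (FF), -2.42 (VSG158) and -2.30 (VSG159), with an SE of 0.30 and a highest adjusted p of 6.76e-05, and the steroid groups overlapped each other. With slide as a fixed block the DEX and FF changes were -3.46 and -3.38, and with normexp and quantile normalization the 4 changes were -1.57, -1.51, -1.83 and -1.49, all called. The other Dusp8 probe read -0.69, -0.82 and -0.79 in vehicle and -4.01, -3.62 and -4.15 with DEX, a change of -3.16 (adjusted p = 1.32e-05). It was not well above background on any FF array, and was above background on 1 of 3 VSG158 and 1 of 3 VSG159 arrays. Its FF change of -4.36 (limma adjusted p = 7.1e-07) rests on those dim signals. A bound, which was not tested, puts FF at least 14-fold lower than vehicle. Such bounds set the brighter group's mean against the mean, over the dim group's arrays, of the lowest signal above background or the probe's own signal, whichever was higher.

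Dusp16 (MKP-7), which binds and inactivates JNK, was read by 3 probes. Its brightest probe read 3.58, 3.61 and 3.53 in vehicle, 3.12, 2.99 and 3.08 with DEX and 2.67, 2.63 and 2.48 with FF. The VSG158 arrays read 2.71, 2.65 and 2.17 and those of VSG159 2.43, 2.28 and 2.66. DEX lay between vehicle and the other steroids without overlap. The changes were -0.51 with DEX (SE 0.14, adjusted p = 0.0102), -0.98 with FF (adjusted p = 0.000114), -1.06 with VSG158 (adjusted p = 6.24e-05) and -1.12 with VSG159 (adjusted p = 3.97e-05). The DEX call held with slide as a fixed block (-0.82, adjusted p = 0.018) and was lost with the mean of the probes (-0.31, adjusted p = 0.126), with scaling to the median (-0.53, adjusted p = 0.158) and with array position added, where the sign turned (0.27, adjusted p = 0.90). That last setting also ended the FF (-0.51, adjusted p = 0.571) and VSG159 (-0.65, adjusted p = 0.173) calls.

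Dusp14 (MKP-6), a small atypical phosphatase that lacks the kinase-binding domain of the others, gave the smallest F test p of the family (adjusted p = 1.14e-08). Its brightest probe read 1.9, 1.8 and 1.8 in vehicle and -0.26, -0.03 and -0.03 with DEX. It read -0.78, -0.87 and -0.81 with FF, -0.75, -0.66 and -0.91 with VSG158, and -0.86, -1.13 and -0.99 with VSG159. All 12 steroid arrays lay below vehicle, and the 9 arrays of FF, VSG158 and VSG159 lay below DEX. The changes were -1.94 with DEX (3.83-fold lower), -2.65 with FF (6.28-fold), -2.60 with VSG158 (6.08-fold) and -2.82 with VSG159 (7.08-fold), with an SE of 0.10 and a highest adjusted p of 7.02e-08.

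Probes of one gene mostly moved together, but on the second probes of Dusp4 and Dusp5 no steroid was called different from DEX; the difference between probes was not tested. The other Dusp4 probe, 5′ of the brighter one, changed by -2.05 (DEX), -2.21 (FF), -2.16 (VSG158) and -2.29 (VSG159), with an SE of 0.14, and its differences from DEX were -0.17 with FF (95% confidence interval -0.47 to 0.13), -0.11 with VSG158 (-0.41 to 0.19) and -0.24 with VSG159 (-0.54 to 0.06), none called. On that probe DEX (0.90, 0.57 and 0.64) overlapped with VSG158 (0.64, 0.81 and 0.33), VSG159 (0.40, 0.31 and 0.66) and FF (0.50, 0.59 and 0.51). The other Dusp5 probe was dim, at -3.91 to -3.10 on all steroid arrays, and its changes were -3.06, -3.05, -3.13 and -3.29 in the same order (SE 0.23). It differed from DEX by 0.02 with FF (-0.49 to 0.53), -0.06 with VSG158 (-0.57 to 0.44) and -0.23 with VSG159 (-0.74 to 0.28), none called. Background limits the differences between steroids that this dim probe can show. The 4 probes are shown by their first 30 bases because only the first of each pair put DEX apart from other steroids in a called difference; the files place them on mm9 at chr8:35884806-35884865 and chr8:35882045-35882104 for Dusp4 and chr19:53616779-53616838 and chr19:53615682-53615741 for Dusp5, all on the plus strand.
Dusp4 probe 1: tcaagggacttcagtaagataacaatgcaa
Dusp4 probe 2: aataacggcggtttccgctgccagagaaga
Dusp5 probe 1: cagggggaaaggcaataagttcccgtaaac
Dusp5 probe 2: tacagacactgagccctgatatgcagggca
The exon or untranslated region at these positions was not analysed here. Which transcripts each probe reads was not tested.

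The second Dusp16 probe changed by -0.44 (DEX), -1.01 (FF), -1.01 (VSG158) and -1.08 (VSG159), with an SE of 0.11, all called. The third Dusp16 probe was dim, between -4.04 and -2.35 on all arrays, and none of its changes was called (0.00, -0.33, -0.64 and -0.48 in the same order, SE 0.45). The second Dusp14 probe changed by -2.20, -2.70, -2.68 and -2.70 (SE 0.11), all called. Both second probes were also called lower than DEX with FF, VSG158 and VSG159. For Dusp16 these differences were -0.58 (adjusted p = 0.0187), -0.57 (adjusted p = 0.0227) and -0.65 (adjusted p = 0.011). For Dusp14 they were -0.50 (adjusted p = 0.0305), -0.48 (adjusted p = 0.0435) and -0.50 (adjusted p = 0.0275). The third Dusp14 probe read -3.83, -4.02 and -4.25 in vehicle and was not well above background on any steroid array, which puts those groups at least 1.20-fold (DEX), 1.46-fold (FF), 1.04-fold (VSG158) and 1.72-fold (VSG159) lower. This probe entered the test only through vehicle, the group where it is high, so these bounds are a description with no test. A run of 48 bases of that probe matches the Dusp14 promoter window at positions -226 to -179 from the RefSeq start, so its letters lie upstream of that start.

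**Figure D3:**
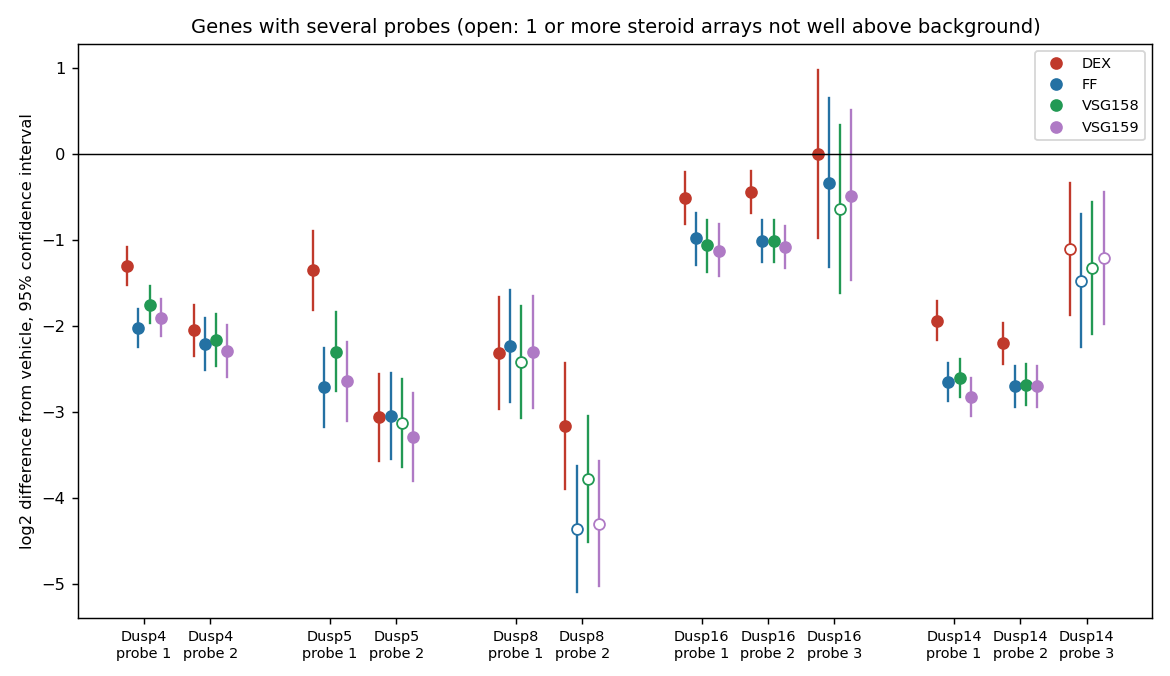
Log2 difference from vehicle (vertical axis) with its 95% confidence interval for each probe of the 5 genes with several probes; open points have 1 or more steroid arrays not well above background. The first Dusp4 and Dusp5 probes put DEX above the other steroids, while the second probes put all 4 steroids at about the same change. The second Dusp5 probe is dim on all steroid arrays, so background limits the differences it can show.

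The 4 compounds were given at the same dose and time, so they were compared with each other in 6 pairs. Several members were lower with the other compounds than with DEX. Against DEX, 5 of 10 members were lower with FF, 3 with VSG158 and 6 with VSG159, and 0 were higher, beside 4.08% (1.85% higher and 2.23% lower), 2.11% (1.12% and 0.985%) and 4.83% (1.32% and 3.51%) of all genes called. Under quantile normalization the split of all called genes differed, with 404 of 683 higher in FF, 255 of 394 higher in VSG158 and 291 of 693 higher in VSG159, while the members called were 5, 1 and 5, all lower. With normexp background correction and quantile normalization these splits were 315 of 527, 190 of 300 and 194 of 460. The median difference of the members was -0.58, -0.42 and -0.6, beside -0.03, -0.07 and -0.08 over all genes, and arrays of the groups did not overlap for 8, 7 and 7 members, beside 38.4%, 22% and 26.8% of all genes. These comparisons share the DEX arrays. Without DEX replicate 2, Dusp7 was called higher than DEX with all 3 compounds, by 0.47 with FF (adjusted p = 0.0218), 0.46 with VSG158 (adjusted p = 0.032) and 0.42 with VSG159 (adjusted p = 0.0316).

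FF and DEX lay on the same slide. FF is a glucocorticoid whose differences from DEX include a furoate ester and a fluoromethyl thioester. The difference, FF minus DEX, was -1.36 for Dusp5 (95% confidence interval -1.82 to -0.90, adjusted p = 0.00847), -0.99 for Dusp10 (-1.33 to -0.65, adjusted p = 0.00855), -0.72 for Dusp4 (-0.94 to -0.50, adjusted p = 0.0054), -0.72 for Dusp14 (-0.94 to -0.49, adjusted p = 0.0059) and -0.70 for Dusp1 (-0.99 to -0.40, adjusted p = 0.0193). When only the arrays of slide 2 were fitted, all 5 stayed called, with adjusted p-values of 0.0421, 0.0394, 0.0382, 0.0394 and 0.0438. None of the 5 was called with scaling to the median or with array position added to the slide block, and in the deposited value table Dusp5 (-1.01, adjusted p = 0.0637), Dusp10 (-0.55, adjusted p = 0.134) and Dusp1 (-0.57, adjusted p = 0.0541) were not. With normexp background correction and quantile normalization Dusp10 read -0.36 (adjusted p = 0.187), and with the mean of the probes Dusp14 read -0.53 (adjusted p = 0.0588) and Dusp5 -0.67 (adjusted p = 0.0338). Dusp1 also lost the call without the filter on dim probes (-0.70, adjusted p = 0.111) and without any 1 of FF replicates 1, 2 or 3 or DEX replicates 1 or 3, at -0.73 to -0.59 with adjusted p-values of 0.0553 to 0.0924. Dusp16 (-0.47, -0.78 to -0.17), Dusp6 (-0.36, -0.62 to -0.10), Dusp2 (-0.21, -0.49 to 0.07), Dusp8 (0.08, -0.57 to 0.73) and Dusp7 (0.32, 0.08 to 0.57) were not called, with adjusted p-values of 0.0776, 0.102, 0.35, 0.898 and 0.12.

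For VSG159 minus DEX the difference was -1.29 in Dusp5 (adjusted p = 0.00873), -0.89 in Dusp14 (adjusted p = 0.00173), -0.88 in Dusp10 (adjusted p = 0.0123), -0.62 in Dusp1 (adjusted p = 0.0247), -0.61 in Dusp16 (adjusted p = 0.0325) and -0.60 in Dusp4 (adjusted p = 0.0101). With slide as a fixed block only Dusp14 was still called (-0.88, adjusted p = 0.0292), and on slide 2 alone VSG159 has 1 array, which is assumed to vary like the FF and DEX arrays. There the Dusp14 difference was again -0.88 (adjusted p = 0.0616), and 0 of 10 members were called. Without VSG159 replicate 2, DEX replicate 1 or DEX replicate 3 the count was 2, 3 and 2. For VSG158 minus DEX it was -0.95 in Dusp5 (adjusted p = 0.0398), -0.67 in Dusp14 (adjusted p = 0.00803) and -0.45 in Dusp4 (adjusted p = 0.041). VSG158 and DEX share no slide, and with slide as a fixed block these were -0.45 (adjusted p = 0.457), -0.66 (adjusted p = 0.0787) and -0.24 (adjusted p = 0.41). The VSG158 count was 1 without vehicle replicate 1, without any 1 of the VSG158 or FF replicates, and without VSG159 replicate 1 or DEX replicate 1 or 3, and the member still called was Dusp14 each time.

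**Figure D4:**
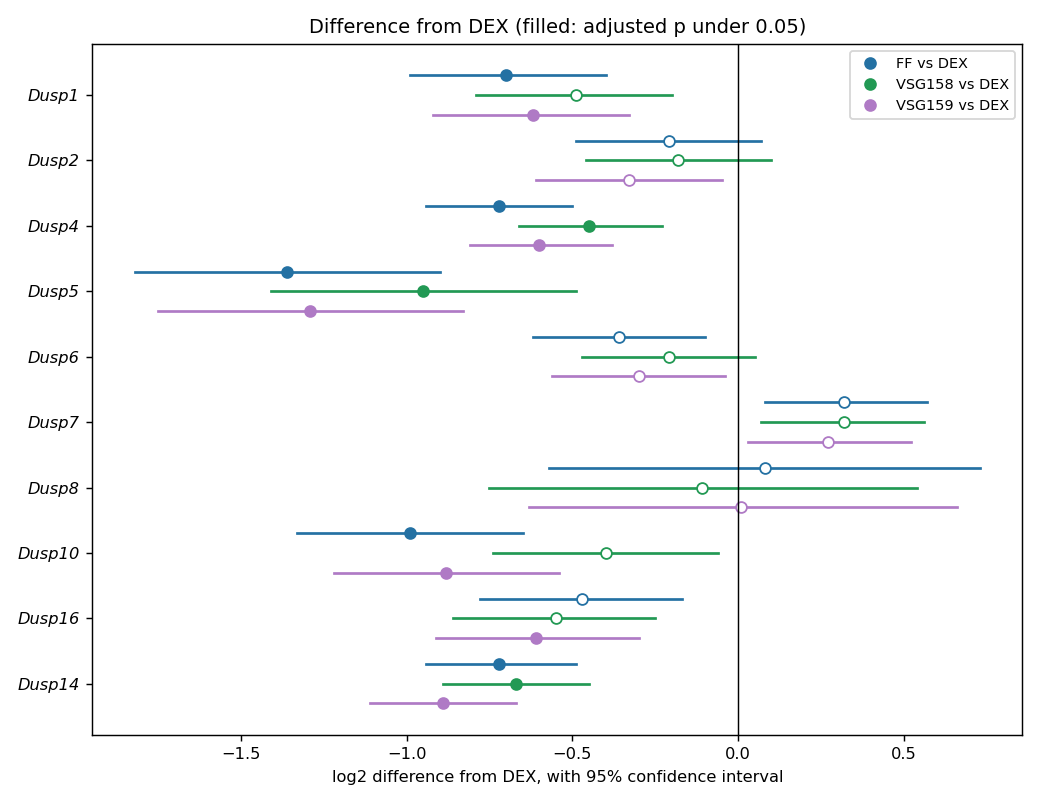
Log2 difference of FF, VSG158 and VSG159 from DEX (horizontal axis) for the 10 members, with the 95% confidence interval of the fit; filled points have an adjusted p under 0.05. All filled points lie left of 0, and Dusp7 lies right of 0 with all 3 compounds without being called.

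FF, VSG158 and VSG159 were not told apart by this family. In VSG158 against FF, VSG159 against FF and VSG158 against VSG159, limma called 0 of 10 members, beside 0% of all genes. At an unadjusted p under 0.05 the counts were 2, 0 and 1 members, beside 6.18%, 5.84% and 5.99% of all genes. Arrays of the groups did not overlap for 3, 0 and 1 members, beside 14.1%, 11.2% and 8.13% of all genes. The 2 members in VSG158 against FF were Dusp10, 0.59 higher with VSG158 (95% confidence interval 0.25 to 0.93, limma adjusted p = 0.667), and Dusp4, 0.28 higher (0.06 to 0.49, adjusted p = 0.667), and the 1 member in VSG158 against VSG159 was again Dusp10, 0.48 higher (0.14 to 0.82, adjusted p = 0.85). VSG158 replicate 2, not well above background for Dusp10, held the highest Dusp10 value of its group. For Dusp5 the interval of VSG158 against FF was -0.05 to 0.87, for Dusp1 -0.09 to 0.49 and for Dusp14 -0.18 to 0.27, so these arrays allow differences of that size. VSG159 and FF differed by -0.17 to 0.12 over the 10 members, and the interval for Dusp8 was the widest, at -0.72 to 0.58.

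Among 19489 other genes, those whose scaled log2 level followed Dusp10 most closely over the 15 arrays were Zcchc2 (Pearson r = 0.9964), Tnc, which encodes the matrix protein tenascin C (0.9951), and AA467197 (0.9944). For Dusp14 they were Tbc1d9 (0.9956), the chemokine gene Ccl12 (0.9954) and Procr, the protein C receptor (0.9941). These are descriptions over arrays that share groups and slides, and all 6 genes were highest in vehicle. The lowest group mean of Tnc was -6.95, under the lowest level above background on every array (-5.03 to -3.01). Its correlation thus rests in part on signal at background.

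The rest of the pathway was read from lists chosen with earlier results of these data known. Their counts stand beside 46.4% (DEX), 42.2% (FF), 44.4% (VSG158) and 44% (VSG159) of all genes called, and 23.1%, 21.4%, 24.6% and 25% of all genes called lower. No list was tested against other genes. Of 8 tested MAP kinase genes, 3 were higher and 2 lower with DEX, 2 and 3 with FF, 2 and 4 with VSG158, and 2 and 2 with VSG159, with median changes of 0.08, -0.06, -0.28 and -0.15. Mapk14, which encodes p38 alpha, changed by 0.60, 0.49, 0.53 and 0.50 (highest adjusted p 0.000864), and Mapk3, which encodes ERK1, by -0.66, -0.62, -0.88 and -1.04 (highest adjusted p 0.00296). Mapk12, a dim p38 family gene, read 1.31, 1.28, 0.79 and 1.12 higher, but only 1 of 3 vehicle arrays was above background. These sizes rest on signal near background. Mapk12 is 1 of the genes counted as higher. It entered the test only through steroid groups, where it is high, so its rise is a description. Of 24 upstream kinases, 2 were higher and 8 lower with DEX, 2 and 6 with FF, 1 and 7 with VSG158, and 1 and 7 with VSG159. Map3k6, which encodes ASK2, changed by 1.69 to 1.92, Map3k20, which encodes ZAK, by -1.42 to -1 and Map2k1, which encodes the ERK activator MEK1, by -0.88 to -0.52, all called. Of 10 downstream kinases, 0 were higher and 5, 4, 5 and 5 were lower. Mknk2, a kinase of the translation factor eIF4E, changed by -2.05 to -1.71, and Rps6ka4 (MSK2) and Rps6ka3 (RSK2) by -1.05 to -0.79 and -0.64 to -0.37, all called.

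Of 19 AP-1 and early-response genes, known targets of MAP kinases, 9 were lower with DEX and 13 with each of the other compounds, and 1, 0, 1 and 0 were higher, with median changes of -0.35, -0.70, -0.75 and -0.74. Atf3, an early-response factor, changed by -2.25 (DEX), -3.01 (FF), -2.87 (VSG158) and -3.05 (VSG159), and Ier3 by -1.38, -2.06, -1.88 and -2.33. Jun, a subunit of AP-1, changed by -1.63, -1.3, -1.11 and -1.27. Of 13 genes whose mRNA stability p38 is known to govern, or that govern it, 7, 9, 8 and 9 were lower and 3, 0, 0 and 0 were higher, with median changes of -0.39, -0.46, -0.65 and -0.56. Il1b changed by -2.06 with DEX and by -3.72, -3.43 and -3.84 with the others, Il6 by -1.01, -2.26, -2 and -2.38, and Ptgs2, which encodes cyclooxygenase 2, by -1.52, -2.42, -2.07 and -2.58, all called. Against DEX, 7 of the 13 were lower with FF, 3 with VSG158 and 6 with VSG159, beside 2.23%, 0.985% and 3.51% of all genes.

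Other brakes of the pathway are given beside 46.4% (DEX), 42.2% (FF), 44.4% (VSG158) and 44% (VSG159) of all genes called. Called ERK feedback inhibitors were mostly lower, and called genes of the other lists were higher or lower. Of 6 tested ERK feedback inhibitors, 3, 2, 2 and 3 were lower and 0, 0, 0 and 1 higher. Errfi1, an inhibitor of the EGF receptor, changed by -1.07 to -0.42 (all called), Spred1 by -0.48 to -0.33 (not called with FF, adjusted p = 0.0542) and Spred2 by -0.73 to -0.41 (not called with VSG158, adjusted p = 0.0811). Of 8 tested phosphatases of other families, 2, 3, 2 and 2 were higher and 2, 0, 2 and 2 lower. Ppp2cb, a catalytic subunit of PP2A, rose by 0.37 to 0.47, Ppm1l rose by 0.53 with DEX and by 0.44 with FF and read 0.22 and 0.30 with VSG158 and VSG159 (adjusted p = 0.194 and 0.0755), and the change of Ptpn5 was -1.34 to -0.69 (not called with FF, adjusted p = 0.0572). Of 11 tested atypical and other DUSP genes, 3, 4, 3 and 4 were higher and 3, 4, 3 and 4 lower, with median changes of 0.22, 0.22, 0.15 and 0.18. Dusp12 rose by 1.47, 1.48, 1.44 and 1.33 and Dusp11, an RNA phosphatase, changed by -0.87 to -0.56, all called. Dusp13, above background on all vehicle arrays and on no steroid array, read at least 11-, 13.4-, 9.57- and 15.8-fold lower. It is 1 of the genes counted as lower and entered the test only through vehicle, so its fall is a description.

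The classical glucocorticoid targets Fkbp5, Tsc22d3 and Klf9 rose with all 4 compounds. Of 7 listed, 3 were higher with DEX and 4 with each of the others, 1 was lower with each, and the remaining genes were not called. Of all genes, 23.3% (DEX), 20.8% (FF), 19.7% (VSG158) and 19.1% (VSG159) were called higher, and 23.1%, 21.4%, 24.6% and 25% lower. Fkbp5, a chaperone of steroid receptors, rose by 3.50, 3.50, 3.60 and 3.37 (SE 0.14), Tsc22d3, which encodes GILZ, by 0.83, 0.45, 0.58 and 0.55, and Klf9 by 0.55, 0.56, 0.61 and 0.47. Against DEX, 0 of the 7 were called with each compound, beside 4.08%, 2.11% and 4.83% of all genes.

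**Figure D5:**
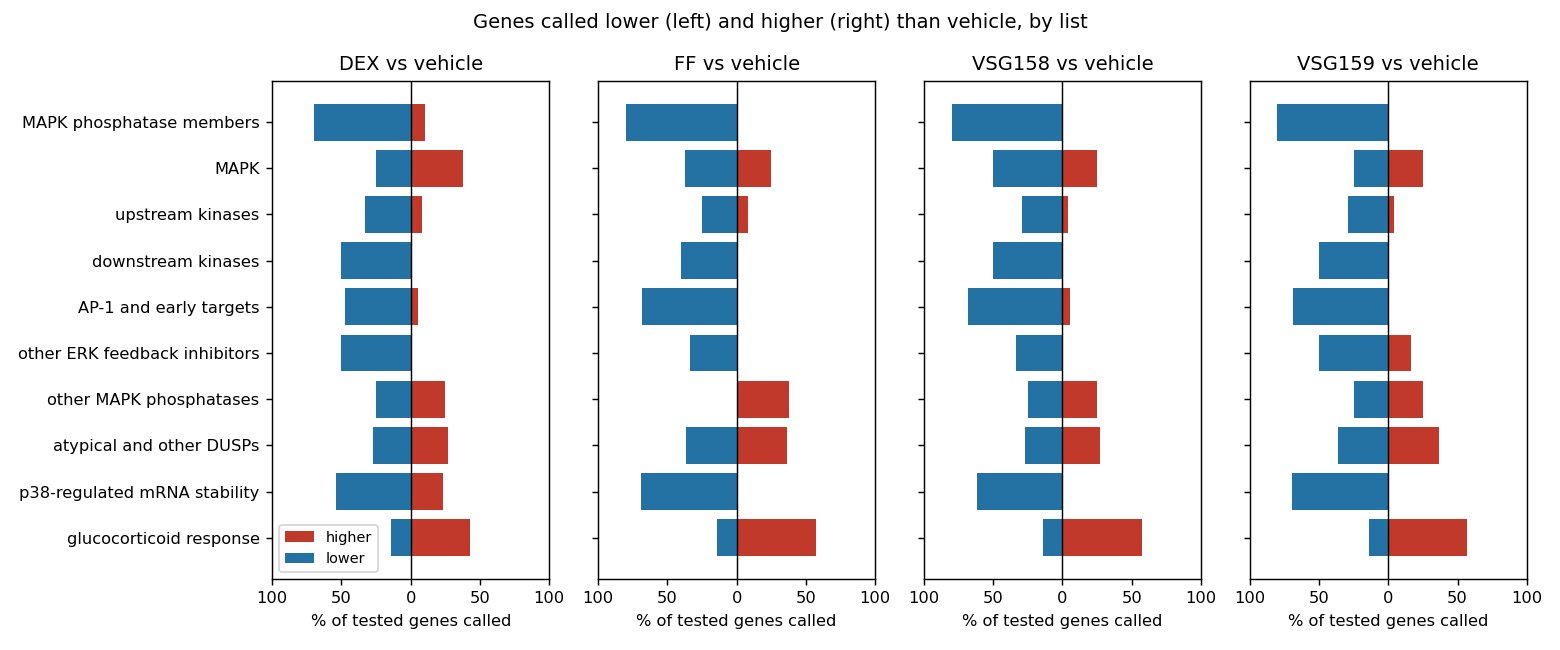
Percentage of the tested genes of each list called lower (left) or higher (right) than vehicle (horizontal axis) with each steroid, at an adjusted p under 0.05. With every steroid the bars of the 10 phosphatases and of the AP-1 and p38 mRNA stability lists reach farther left than right. The same holds for the upstream kinases, the downstream kinases and the other ERK feedback inhibitors. Those of the glucocorticoid response genes reach farther right than left.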

How the data were processed

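Spots were read with Feature Extraction 10.7.3.1, per the file headers. The deposited processed signal intensity is background-subtracted and detrended within each array, with surrogate values for spots not above background. The deposited value table holds the authors' log2 values (medians 5.943 to 5.994, correlation with the log2 processed signal 0.988 to 0.9941 per array); its centring is unknown, and it was used only as an alternative. The submitters' processing notes name limma.

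From the processed intensity, control spots (3671 of 62976) were left out, outlier-flagged spots were set to missing, spots of a probe were averaged on the log2 scale and the array's 75th percentile was subtracted. A probe was tested when well above background on at least 2 of 3 arrays of 1 or more groups, with a value in every group (28497 probes, 19490 genes; 10 probes had no value in a group). No member had a missing value. limma 3.58.1 in R 4.3.3 fitted group means over all 15 arrays (residual degrees of freedom 10, prior 1.79), two-sided, with Benjamini-Hochberg adjustment over probes within each of the 10 comparisons. An exact test of 3 arrays against 3 cannot go below p = 0.1. The procedure was tested on simulated data. Symbols of 532 tested probes were updated through the RefSeq table (GRCm38.p6).

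The members, lists and alternatives were chosen with earlier results of these data known. The text names all members with every probe, the 3 genes most like each of the 2 members with the widest range of group means, and the 3 genes of each list with the smallest F test p. Alternatives covered scaling, background correction, the dim-probe filter, probe choice, slide, array position, replicate number and leaving out each array.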

Additional observations from a re-analysis of the deposited data

How the results depend on the processing

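The direction of each called member difference was the same in all alternatives except when array position was added to the slide block, where Dusp6 and Dusp16 with DEX against vehicle read 0.03 and 0.27 and Dusp4 in VSG158 against DEX read 0.14. With that setting, member calls against vehicle were 0 (DEX), 4 (FF) and 5 (VSG159), beside 0.164%, 5% and 13.5% of all genes. With VSG158 against vehicle only the Dusp1 call was lost, and 29.3% of all genes were called. Against DEX the member calls were 0 (FF), 0 (VSG158) and 0 (VSG159), beside 0.318%, 0% and 0% of all genes. Scaling to the median left 5 members called with DEX against vehicle and 0, 0 and 0 in FF, VSG158 and VSG159 against DEX, where it left 0, 18 and 30 of all genes; it moved the median of all genes in VSG158 against FF from -0.03 to -0.14. For VSG158 against DEX (3 members), the count was 1 with quantile normalization, with normexp and quantile normalization, and in the deposited value table. The shares of all genes called there were 2.02%, 1.54% and 1.18%. Without the filter, with the mean of a gene's probes and with slide as a fixed block it was 0, beside 0.344%, 1.74% and 3.37%. With slide as a random block and with only the groups compared it was 0, beside 0% of all genes. Those 2 settings cannot set members apart from other genes. For VSG159 against DEX (6 members), the count was 3 in the value table and 2 without the filter, beside 1.66% and 0.575% of all genes. With slide as a fixed and as a random block it was 1 and 3, beside 2.46% and 1.09%. With only the groups compared it was 0, beside 0% of all genes. The fit of VSG159 on slide 2 alone was an alternative chosen after seeing the data. For FF against DEX (5 members) the value table gave 2, beside 1.87% of all genes. The cause was not tested.

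Same-numbered arrays of different groups mostly did not deviate together (correlation -0.531 to 0.289, over 0.1 in 6 of 30 pairs). Of the 15 arrays, 3 correlated best with their own number. The replicate 3 arrays of vehicle, VSG158, FF and DEX correlated with each other at 0.081 to 0.289. VSG159 replicate 3, which lay on slide 2, correlated with them at -0.517 to -0.272. What the replicate numbers stand for was not tested, and they were left out of the main fit. With the replicate number as a block, VSG158 against DEX had 1 member called instead of 3, beside 1.25% of all genes. The other counts were 8 or fewer and within 1.5 times the main ones.

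Leaving out 1 replicate gave 7 to 8 members with DEX against vehicle, 8 to 8 with FF, 7 to 8 with VSG158 and 8 to 8 with VSG159. Against DEX it gave 4 to 6 with FF, 1 to 4 with VSG158 and 2 to 6 with VSG159, and 0 to 0 in the remaining pairs. The F test gave 8 to 9. The Dusp2 rise with DEX lost its call in 15 of 28 alternatives. Dim probes of Dusp5, Dusp8, Dusp10 and Dusp14 in steroid-treated cells were limited by background.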
